A study of Mus musculus with 12 samples.

Results

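The mRNAs described here encode the factors that start and extend protein synthesis. They are the genes of the deposited count table whose symbol begins with Eif and a digit from 1 to 6 or with Eef and a digit of 1 or 2. The binding protein gene Eif4ebp1 and the eIF2 kinase genes (Eif2ak) were left out of the set and are counted with the neighbouring genes below. The rule found 96 of the 35303 symbols in the table. No measured value entered the rule.

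The cells were wild-type mouse myeloid-derived suppressor cells (MDSCs), a mixture of polymorphonuclear and monocytic cells grown from the bone marrow of young adult female C57BL/6 mice with IL-6 and GM-CSF and purified as CD11b+Gr1+ cells. Each of 3 groups had 4 libraries. The MDSC group had no nanoparticles (NPs), the MDSC-NP-Blk group carried blank PLGA NPs joined to surface azido groups by click chemistry, and the CITED group carried NPs loaded with rapamycin, an inhibitor of the kinase mTOR. All cells were then kept for a day in medium with IL-6 before poly(A) RNA was sequenced. Comparing MDSC-NP-Blk with MDSC addresses the attached particle together with its handling, and comparing CITED with MDSC-NP-Blk addresses the drug load. The methods call the libraries of a group independent biological replicates, whose spread the p-values measure. Whether each came from a separate mouse or culture, and whether the MDSC group also received the azido sugar, is not given in the sources used here.

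Translation of most mRNAs starts when the eIF4F complex binds the 5′ cap and the small ribosomal subunit, loaded with eIF1, eIF1A, eIF3, eIF5 and the eIF2 ternary complex that brings the initiator tRNA, scans to a start codon. Elongation then needs eEF1A, which delivers aminoacyl-tRNAs, its exchange factor eEF1B, and eEF2, which moves the ribosome along. mTOR acts on this machinery through the eIF4E-binding proteins and S6 kinases, and many mRNAs of the machinery carry a 5′ terminal oligopyrimidine (TOP) run, a C followed by further C or T bases at the very start of the transcript.

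The libraries held 20604809 to 37855478 counts, and 3 counts, the floor used here, are 7.92e-06% to 1.46e-05% of a library, for counting error only. Of the 11 myeloid markers checked, 10 exceeded a mean normalized count of 50, and the summed level in CPM, which scales counts to the size of the library, lay at 29300 to 32500 in MDSC, 26700 to 29600 in CITED and 33700 to 35400 in MDSC-NP-Blk. S100a8 and S100a9 make up most of that sum, and some other members of the list had another order. Mean normalized counts in the same order of groups were 4341, 12630 and 11000 for Csf3r, 6728, 19120 and 13540 for Cebpb, and 11320, 22570 and 21170 for Csf1r. Itgam was at 51960, 70030 and 61400, Cd33 at 13110, 22150 and 21700, and Arg1 at 9502, 12250 and 15490. Ly6c2, at 25700, 20230 and 33670, and Ly6c1, at 33.25, 16.27 and 41.24, were lowest in CITED. Ly6g was at 3934, 4573 and 4615. The paper tells monocytic from polymorphonuclear cells by Ly6C and Ly6G protein, and a shift in their mix was not tested. A tissue field in the labels names the CNS. Of 9 neural markers, 6 were at 0 in all libraries, and the myelin gene Mbp was the only one above a mean of 50. Of 3 microglia markers, Tmem119 had group means of 1395 to 1843, P2ry12 of 23.25 to 44.79, and Sall1 was at 0. Mast cell and basophil markers summed to 96.4 to 101 CPM in CITED, 175 to 189 in MDSC and 158 to 181 in MDSC-NP-Blk. B cell markers summed to 2.58 to 3.51, 10.4 to 14.7 and 5.21 to 8.56 CPM in that order. The part of these cell types in the results was not tested. In bulk RNA, fewer cells of a type and less RNA per cell cannot be told apart.

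The MDSC-NP-Blk libraries fell into 2 pairs. By the chi-square of their counts per degree of freedom, replicates 1 and 4 differed by 5.54 and replicates 2 and 3 by 5.77, while libraries of different pairs differed by 15 to 20.7, against 4.63 to 9.26 within the other groups. Some factors split in the same way, such as Eif4a2 at 8004 and 8874 in replicates 1 and 4 and 6486 and 6208 in replicates 2 and 3, and Eif4g2 at 11437 and 11269 against 13874 and 14515 (normalized counts). The comparisons were therefore repeated without each pair, a choice made after seeing the data, and the calls lost by it are named with the results.

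Of the 96 genes, 22 had no count in any library, which allows up to 3 counts in each. These were 14 numbered relatives of Eif1ad, 5 pseudogenes, Eif4e1b, Eif4a3l1 and Eif2s3y, the Y-linked copy of the eIF2 gamma subunit gene. With these, 25 were at or under 3 counts in all libraries. Altogether 73 passed the filter of 2 counts over all libraries and were tested, of which 58 had a mean normalized count above 50 and are called expressed here. Among the expressed genes, 56 have a role in initiation or elongation or modify its factors, and the others are Eif1ad and the pseudogene Eif4a-ps4. A gene that passed a filter only through a group where it was high had to differ between groups, so the counts below describe the genes that passed and not all members.

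Some of these genes share much sequence with pseudogenes, and the counts of such genes are uncertain because the authors' software shares ambiguous reads out among transcripts. At least 10% of the 31-base words of 25 of the 58 expressed genes also occur in transcripts of other genes, and for 6 the share was at least 50%. It was 97.4% for the pseudogene Eif4a-ps4, all of it shared with Eif4a1, and 94.9% for Eif3j2. The part of Eif4a1 reads in the counts of Eif4a-ps4 was not tested. The share was 72.3% for Eef1a1, 69.2% for Eif4a1, 68% for Eef1g, 52.2% for Eif3m, 46.1% for Eif3e and 39.2% for Eif1, against 23.8% for Eef2. Eif3f, Eif6 and Eef2k were under 10%.

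The factor mRNAs took 1.82% ± 0.0217 (SD, n = 4) of all counts in MDSC, whereas in MDSC-NP-Blk they took 2.2% ± 0.00315 and in CITED 2.16% ± 0.05. Libraries of MDSC, at 1.81% to 1.85%, did not overlap those of the other groups, at 2.1% to 2.21%. Eef1a1 and Eef2 alone went from 0.941% ± 0.0166 for MDSC to 1.31% ± 0.00798 for MDSC-NP-Blk and 1.27% ± 0.0389 for CITED. All the other members together took 0.884% ± 0.00939, 0.895% ± 0.00944 and 0.891% ± 0.0119, and these ranges overlapped. The net gain in share in the conjugated cells thus lay in the counts of Eef1a1 and Eef2. The near-constant sum of the other members is a net of rises and falls of single genes, which are given below.

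Per transcript length, on a TPM-like scale (counts per kilobase relative to their sum in the library), Eef1a1 stood highest at 8430 in MDSC (8270 to 8540), followed by Eef2 at 1460 (1400 to 1520) and Eif5a at 1280 (1240 to 1310). Eif4a1 was at 726 (702 to 748) and Eif1 at 497 (481 to 520). In MDSC-NP-Blk and CITED, Eif1 stood above Eif4a1, at 855 and 911 against 507 and 541. These levels compare genes within a group. With the longest annotated transcript as the length, Eef1a1, Eef2, Eif5a and Eif4a1 moved by more than the spread over the libraries, and Eif1 stood above Eif4a1 in MDSC as well (595 against 524), so the order of these 2 genes in MDSC rests on the length used.

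Relative to the median expressed gene, more factor mRNAs were higher than lower in the conjugated cells. In MDSC-NP-Blk against MDSC, 29 of the 73 genes tested were higher and 12 were lower at an adjusted p below 0.05, while 19.9% and 18.6% of all genes tested were higher and lower. Of the 58 expressed factors, 28 (48.3%) were higher and 12 (20.7%) lower, beside 32.1% and 28.2% of all expressed genes. Their median log2 fold change was 0.10, against 0.00 for all expressed genes. Without MDSC-NP-Blk replicates 1 and 4 the counts were 24 higher and 8 lower of the genes tested, and without replicates 2 and 3 they were 29 and 19. For these runs the shares of all genes called are not given here.

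In CITED against MDSC, 29 of 73 were higher and 13 lower, beside 22.2% and 22.2% of all genes tested. Among the expressed factors 28 (48.3%) were higher and 13 (22.4%) lower, where 35.6% and 32.3% of all expressed genes were, with a median of 0.12 against 0.02. Both comparisons use the same MDSC libraries and are therefore not independent of each other.

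Few factor mRNAs differed between CITED and MDSC-NP-Blk. Here 7 of 73 were higher and 4 lower, all of them expressed, beside 10.5% and 11.4% of all genes tested. These are 12.1% and 6.9% of the expressed factors, where 16.9% and 18% of all expressed genes were higher and lower. The median log2 fold change was 0.03, and the largest sizes were 0.48 for Eef1akmt4 and -0.54 for Eef2k.

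When a log2 fold change of at least 1 was also required, 3 factors passed in MDSC-NP-Blk against MDSC and 3 in CITED against MDSC, where 4.74% and 9.99% of all genes tested did. With edgeR 0 of the 73 passed in CITED against MDSC-NP-Blk, where 2.65% of all genes tested did, and 0 with an unadjusted p below 0.05 and this fold change or with DESeq2. The genes were Eif1, Eif3f and Eif4ebp3 in both comparisons. Eif4ebp3 had no count in any MDSC library and 0 to 11 counts in the others, 35 in all, and 61% of its 31-base words are shared with Maskbp3, so no fold change is given for it.

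**Figure D1:**
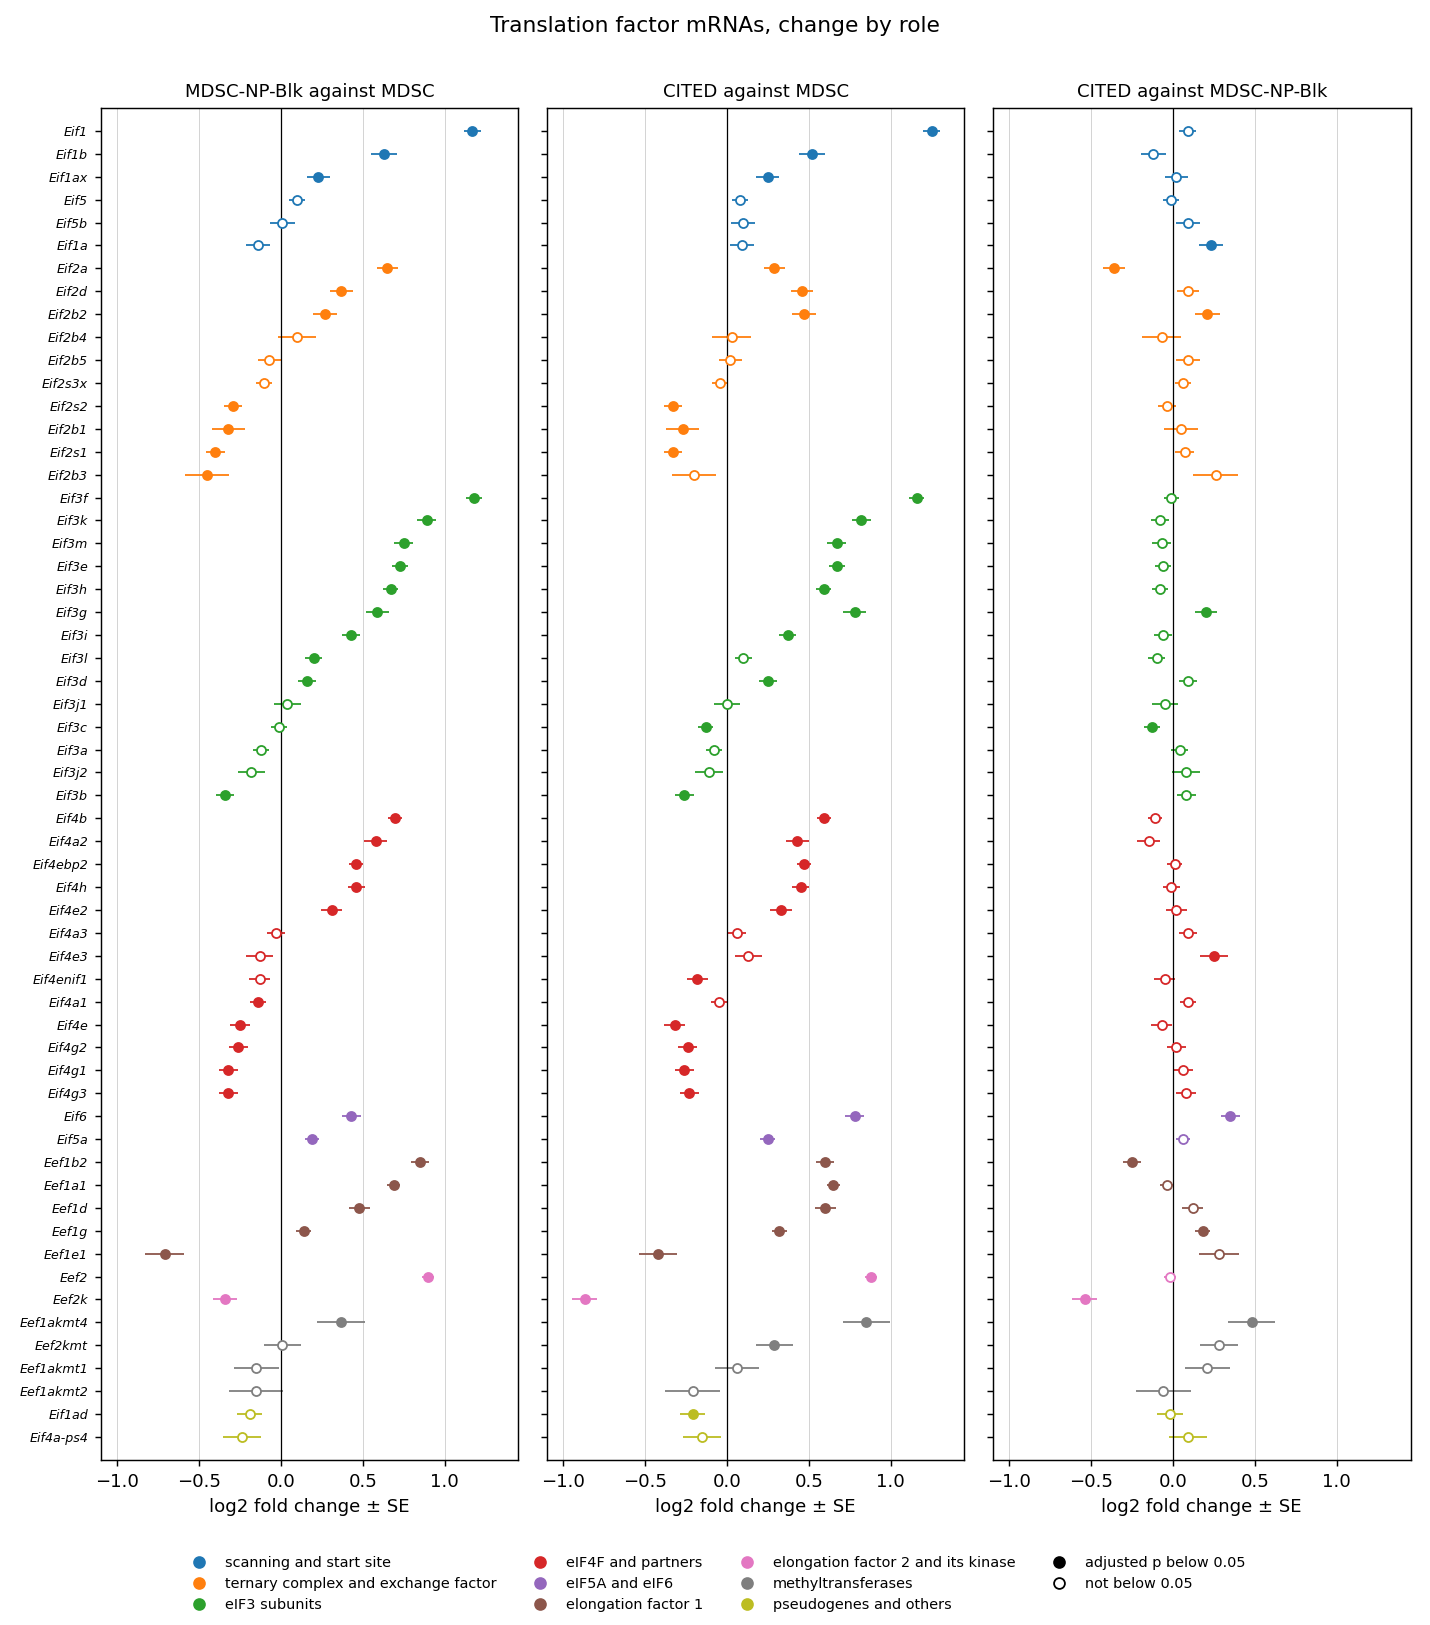
Log2 fold change with its standard error (x axis) for the 58 expressed factor genes (y axis, ordered and coloured by role) in 3 comparisons, with filled points for an adjusted p below 0.05. Points spread from -0.71 to 1.18 in MDSC-NP-Blk against MDSC and from -0.87 to 1.25 in CITED against MDSC, but only from -0.54 to 0.48 in CITED against MDSC-NP-Blk.

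The scaling of libraries bears on these directions. TMM factors, which set most genes to no change, ran from 1.118 to 1.148 for MDSC, from 0.938 to 0.947 for MDSC-NP-Blk and from 0.921 to 0.944 for CITED. With library totals alone the median expressed gene moved to -0.26 in both comparisons with MDSC, and the factors moved with it to -0.16. Then 20 factors were higher and 26 lower in CITED than in MDSC, and 20 higher and 30 lower in MDSC-NP-Blk than in MDSC, so that lower calls outnumbered higher ones. The shares of all genes called with this scaling are not given here. The median of the factors stayed above that of all expressed genes, so these counts follow a shift of all genes. The higher calls lost with library totals alone were those of Eef1g, Eef2kmt, Eif1ax, Eif2a, Eif3d, Eif3i, Eif4a2, Eif4e2 and Eif5a in CITED and of Eef1akmt4, Eef1g, Eif1ax, Eif2b2, Eif2d, Eif3d, Eif3l, Eif4e2 and Eif5a in MDSC-NP-Blk. The direction is therefore given relative to the median gene.

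A pyrimidine run at the start of the transcript is the mark of a TOP mRNA, and the start windows of some genes that the results turn on are shown for that reason. Each window covers 10 bases before and 20 bases from the annotated start of the canonical GENCODE transcript (release 39, GRCm39), 5′ to 3′ on the strand of the gene. Capitals mark a run of a C followed by at least 4 further C or T bases that begins within 5 bases of the annotated start.
Eif3f (chr7:108533611-108533640, plus strand): ttctaggCTCTCTCTCTTTCTCggcaagat
Eif3k (chr7:28681280-28681309, minus strand): ctgaaagcgCCTTTCCCTTTgccttccttg
Eef1a1 (chr9:78388987-78389016, minus strand): ctccgCCCTCTTCCCgagggtgggggagaa
Eef1g (chr19:8944395-8944424, plus strand): cccctcgCTTTTTCCaactcagcggggctg
Eif2s1 (chr12:78908583-78908612, plus strand): acagcgCCCTCTCTTggttgactaaaactt
Eif2s3x (chrX:93256296-93256325, minus strand): ttcccgccgCTTCCCCTTCgctccgcccaa
Eif1 (chr11:100210660-100210689, plus strand): cgcgtcaagccttgactccgccccccgacc
Eef2 (chr10:81012455-81012484, plus strand): aaggccgggcgttgacgtcagcggtctctt
The run was 15 bases in Eif3f, 11 in Eif3k, 10 in Eef1a1 and 8 in Eef1g, which were higher in both conjugated groups than in MDSC, but also 9 in Eif2s1, which was lower, and 10 in Eif2s3x, which did not pass the test. Eif1 and Eef2, both higher, had none at this position. In each window shown with a run, the run began before the annotated start, by 5 bases in Eef1a1.

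Such a run was found in 15 of the 58 expressed factors (25.9%), in 19.9% of 10543 expressed genes with a start window and in 18.2% of 17648 genes tested with one. Of the 15, 7 were higher and 5 lower in CITED than in MDSC, with a median log2 fold change of 0.02, and of the 43 without a run, 21 were higher and 8 lower, with a median of 0.13. Of all expressed genes with a run, 35.9% were higher and 32.1% lower in CITED than in MDSC, and of those without, 35.6% and 32.3%. For MDSC-NP-Blk against MDSC, 6 of 15 were higher and 3 lower, beside 22 and 9 of 43, where 33.2% and 27.8% of expressed genes with a run and 31.9% and 28.4% of those without were. For CITED against MDSC-NP-Blk, 3 of 15 were higher and 1 lower, beside 4 and 3 of 43, where the shares were 16.9% and 17.5% with a run and 16.9% and 18.1% without. The annotated start can lie away from the one used in these cells. A marked run therefore need not open the transcript, and a window without one says only that these letters are not at this position. Genes without a run can thus include TOP mRNAs, such as Tpt1, which had none at its annotated start.

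Among the scanning and start-site factors, Eif1 more than doubled on conjugation. It encodes eIF1, which guards the accuracy of start codon choice, and lies on chromosome 11 from 100210670 to 100212922 (GRCm39, plus strand). The normalized counts were 6895, 7284, 7194 and 6907 in MDSC, 17027, 15046, 14711 and 16742 in MDSC-NP-Blk, and 18633, 16272, 16400 and 16090 in CITED. All 8 libraries with NPs lay above all MDSC libraries, while the groups with NPs overlapped. The log2 fold change was 1.17 ± 0.0532 (SE; adjusted p = 1.3e-18) for MDSC-NP-Blk and 1.25 ± 0.0533 (adjusted p = 5.7e-20) for CITED, and it was 0.09 ± 0.0523 (adjusted p = 0.28) between them, or 0.18 (adjusted p = 0.0045) without MDSC-NP-Blk replicates 1 and 4.

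Its near relative Eif1b rose less, from 998 ± 36.9 to 1550 ± 175 in MDSC-NP-Blk and 1428 ± 167 in CITED (means ± SD of normalized counts, as in the following values of this form), with log2 fold changes of 0.63 and 0.52. Eif1ax, which encodes eIF1A, the partner of eIF1 in the decoding site, was higher by 0.23 (adjusted p = 0.0091) and 0.25 (adjusted p = 0.0034), but reversed to -0.04 and -0.03 with library totals alone, and the first of these calls was lost without MDSC replicate 4 (adjusted p = 0.062) or MDSC-NP-Blk replicates 1 and 4 (adjusted p = 0.059). Eif5, the GTPase-activating protein for eIF2, and Eif5b, which joins the ribosomal subunits, did not pass in any comparison, with log2 fold changes of -0.01 to 0.10. Eif1a passed only in CITED against MDSC-NP-Blk, at 1409 ± 35 against 1202 ± 110 (0.23 ± 0.0743, adjusted p = 0.024), and this was lost without MDSC-NP-Blk replicate 1 (adjusted p = 0.067) or 4 (adjusted p = 0.063) or CITED replicate 3 (adjusted p = 0.063).

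The mRNAs of the eIF2 complex fell in the conjugated cells or did not pass. eIF2 carries the initiator tRNA, and phosphorylation of its alpha subunit, the product of Eif2s1, is the switch of the integrated stress response. Eif2s1 normalized counts were 1898, 1907, 1928 and 1922 in MDSC, 1446, 1467, 1450 and 1426 in MDSC-NP-Blk, and 1595, 1466, 1495 and 1515 in CITED. The MDSC libraries lay above all others, and the groups with NPs overlapped. With edgeR the log2 fold change was -0.40 ± 0.0565 (adjusted p = 3.6e-07) for MDSC-NP-Blk and -0.33 ± 0.0566 (adjusted p = 6.2e-06) for CITED. The beta subunit gene Eif2s2 went from 3301 ± 132 to 2703 ± 110 and 2621 ± 150 (-0.29 and -0.33). The gamma subunit gene Eif2s3x was at 5455 ± 199, 5087 ± 229 and 5307 ± 166, which did not pass (adjusted p = 0.11 and 0.54), though it did for MDSC-NP-Blk without its replicates 2 and 3 (-0.17, adjusted p = 0.0079).

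The exchange factor eIF2B recharges eIF2 with GTP, and its 5 subunit genes did not move in 1 direction. Eif2b2 (beta) rose from 1257 ± 73.7 to 1516 ± 201 in MDSC-NP-Blk and 1743 ± 85 in CITED, while Eif2b1 (alpha) fell from 490 ± 72.2 to 393 ± 25.2 and 406 ± 37.4. The Eif2b1 call in CITED was lost without MDSC replicate 1, 2 or 3 or CITED replicate 1 (adjusted p of 0.074 to 0.11). Without MDSC-NP-Blk replicates 1 and 4 the calls of Eif2b1, Eif2b2 and Eif2b3 in MDSC-NP-Blk were lost (-0.28, 0.09 and -0.27, adjusted p = 0.0509, 0.35 and 0.17), and Eif2b2 was at 0.10 (adjusted p = 0.24) with a length correction, which takes the trend of expression on transcript length out of each library. Between CITED and MDSC-NP-Blk, Eif2b2 differed by 0.21 ± 0.0738 (adjusted p = 0.042), which was lost without MDSC-NP-Blk replicate 2 or 3 or CITED replicate 1, 2 or 4 (adjusted p of 0.0525 to 0.20) and was at 0.05 (adjusted p = 0.75) without MDSC-NP-Blk replicates 2 and 3. Eif2b3 (gamma) was lower in MDSC-NP-Blk (-0.45 ± 0.133, adjusted p = 0.006) and at -0.20 in CITED (adjusted p = 0.24), and its difference between CITED and MDSC-NP-Blk, 0.26 ± 0.136, did not pass (adjusted p = 0.20). Eif2b4 and Eif2b5 did not pass in any comparison.

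Eif2a, for the alternative initiation factor eIF2A, rose with blank NPs and was lower with rapamycin NPs than with blank ones. It counted 1298, 1187, 1263 and 1250 in MDSC, 1982, 1899, 1748 and 2224 in MDSC-NP-Blk, and 1519, 1569, 1489 and 1519 in CITED, on the normalized scale. The 3 groups did not overlap, and CITED lay between the others. In the test this was a log2 fold change of 0.65 ± 0.0655 (adjusted p = 4e-10) for MDSC-NP-Blk against MDSC, -0.36 ± 0.0655 (adjusted p = 5.1e-05) for CITED against MDSC-NP-Blk and 0.29 ± 0.066 (adjusted p = 0.00046) for CITED against MDSC. With library totals alone, CITED against MDSC was at 0.01 (adjusted p = 0.92), so the place of CITED above MDSC rests on the scaling. Eif2d, for another factor that can deliver tRNA, rose from 913 ± 58.1 to 1180 ± 44.7 and 1251 ± 66.1.

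The genes of eIF3, the largest initiation factor and a scaffold for the small subunit, split by subunit. Of 14 expressed genes, 9 were higher and 1 lower in MDSC-NP-Blk than in MDSC, and 8 were higher and 2 lower in CITED than in MDSC. These are 64.3% and 7.14%, and 57.1% and 14.3%, where 32.1% and 28.2%, and 35.6% and 32.3%, of all expressed genes were. Eif3e, Eif3f, Eif3h, Eif3k and Eif3m, which belong with Eif3a, Eif3c and Eif3l to the octameric core, rose by 0.59 to 1.18 on the log2 scale in both comparisons. Eif3a and Eif3c did not rise in either comparison.

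Eif3f changed the most of the eIF3 genes. It lies on chromosome 7 from 108533574 to 108543245 (plus strand) and encodes a subunit known to bind mTOR. Normalized counts were 5056, 4812, 4808 and 4736 in MDSC, 11471, 10913, 10744 and 10754 in MDSC-NP-Blk, and 11250, 10970, 10724 and 10489 in CITED. Groups with NPs overlapped one another and lay far above MDSC. Its log2 fold change came to 1.18 ± 0.0461 (adjusted p = 4e-20) for MDSC-NP-Blk and 1.16 ± 0.0461 (adjusted p = 9.9e-21) for CITED. Between CITED and MDSC-NP-Blk it was -0.01 ± 0.0453 (adjusted p = 0.89).

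Eif3k went from 2648 ± 111 in MDSC to 4921 ± 506 and 4668 ± 174 (0.89 and 0.82), and Eif3g, a subunit that helps scanning, from 1127 ± 69.2 to 1697 ± 172 and 1941 ± 87.7 (0.59 and 0.78). Eif3g was the only eIF3 gene higher in CITED than in MDSC-NP-Blk, at 0.20 ± 0.0677 (adjusted p = 0.033), and this was lost when any of MDSC-NP-Blk replicate 2 or 3 or CITED replicate 1 or 4 was left out (adjusted p of 0.14, 0.087, 0.083 and 0.11). Eif3i rose by 0.43 and 0.37 and Eif3d, which can itself bind caps of some mRNAs, by 0.16 and 0.25. The first Eif3d call was lost without MDSC replicate 1 or MDSC-NP-Blk replicate 1 or 4 (adjusted p of 0.06 to 0.064) and with the length correction (0.06, adjusted p = 0.31). Eif3l was higher in MDSC-NP-Blk (0.20, adjusted p = 0.0014), which the length correction took to 0.07 (adjusted p = 0.22), and at 0.10 in CITED (adjusted p = 0.12).

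Eif3b, the subunit that holds Eif3g and Eif3i, went the other way. Its normalized counts were 3533, 3687, 3701 and 3635 in MDSC, 2838, 3057, 3044 and 2533 in MDSC-NP-Blk, and 2854, 3167, 3162 and 2975 in CITED. No library with NPs reached the MDSC range, and the log2 fold changes were -0.34 ± 0.057 (adjusted p = 6.7e-06) and -0.26 ± 0.057 (adjusted p = 0.00025). Eif3c was lower in CITED, at 4807 ± 121, than in MDSC at 5277 ± 128 (adjusted p = 0.02) and MDSC-NP-Blk at 5255 ± 223 (adjusted p = 0.0497), but the call against MDSC was lost without MDSC replicate 1 (adjusted p = 0.0532) or CITED replicate 1 (adjusted p = 0.061), and the call against MDSC-NP-Blk without any of 10 of the 12 libraries in turn (adjusted p of 0.0508 to 0.16).

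Per length, the eIF3 mRNAs were far from equal. Levels ran from 13.3 (Eif3j1) to 303 (Eif3k) in MDSC, with a median of 130 over 14 genes, and from 10.5 to 432 with blank NPs and 10.2 to 412 with rapamycin NPs for the same end genes. The order rests on the length used. With the longest transcripts Eif3k was at 183 in MDSC, and Eif3f stood above it with blank NPs (289 against 265) and rapamycin NPs (287 against 252). The loosely held subunit eIF3j is made from Eif3j1 and Eif3j2, of which 94% of the words of Eif3j2 occur in Eif3j1 and 40.9% of those of Eif3j1 in Eif3j2, and which did not pass in any comparison.

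**Figure D2:**
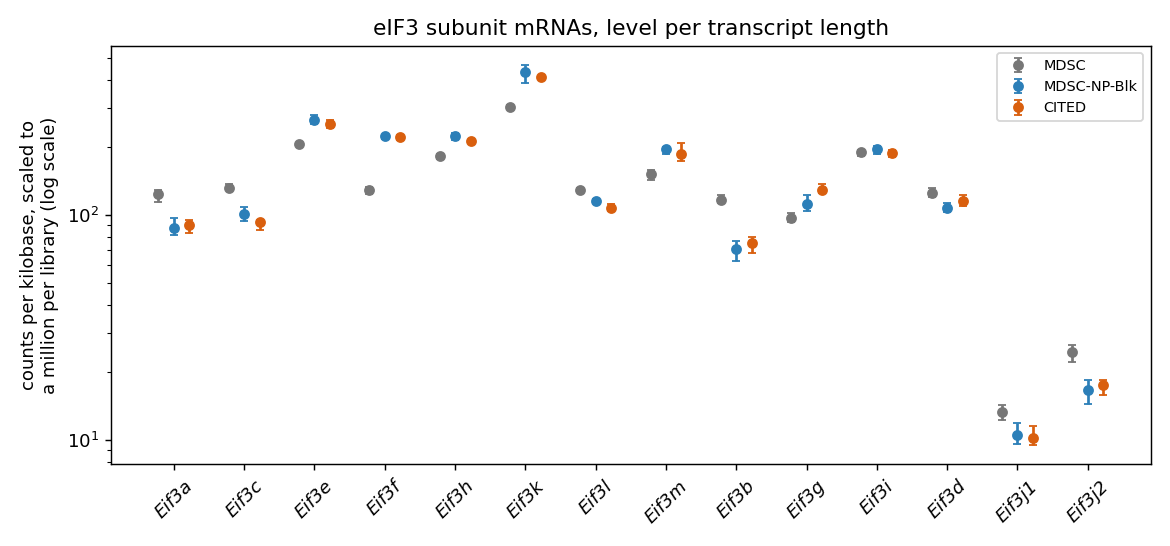
Levels of 14 eIF3 subunit mRNAs (x axis) on the TPM-like scale of counts per kilobase (y axis, log scale), with points for the mean of 4 libraries and bars for the lowest and highest library. Within MDSC, Eif3f stood at 129 beside Eif3a at 124, and within MDSC-NP-Blk at 224 beside Eif3a at 87.3. These levels compare genes within a group, not a gene between groups. In the edgeR test Eif3a did not pass in MDSC-NP-Blk against MDSC (-0.12, adjusted p = 0.0521).

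Among the eIF4F genes, that of the cap-binding subunit and those of the scaffolds were called lower and those of helicase partners higher, but the scaffold calls in CITED were lost with the length correction. The numbers were 5 higher and 5 lower of 13 expressed genes (38.5% each), both in MDSC-NP-Blk and in CITED against MDSC, near the 32.1% and 28.2%, and 35.6% and 32.3%, of all expressed genes. Eif4g1, the main scaffold gene, had normalized counts of 7848, 7525, 8030 and 8266 in MDSC, 5554, 6790, 7160 and 5791 in MDSC-NP-Blk, and 6536, 6678, 6785 and 6448 in CITED. The MDSC libraries were the highest, and the MDSC-NP-Blk libraries were widely spread around those of CITED. The test gave a log2 fold change of -0.32 ± 0.0591 (adjusted p = 2.8e-05) and -0.26 ± 0.0591 (adjusted p = 0.00038), of which the length correction left -0.17 (adjusted p = 0.0037) and -0.02 (adjusted p = 0.72). Between CITED and MDSC-NP-Blk, Eif4g1 was higher by 0.22 (adjusted p = 0.0011) when MDSC-NP-Blk replicates 2 and 3 were left out.

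The related scaffold genes Eif4g2 (-0.26 and -0.24) and Eif4g3 (-0.32 and -0.23) and the cap-binding protein gene Eif4e (-0.25 and -0.32) were called lower in both comparisons as well. With the length correction Eif4g2 was at -0.05 (adjusted p = 0.46) and 0.07 (adjusted p = 0.27) and Eif4g3 at -0.17 (adjusted p = 0.0065) and -0.02 (adjusted p = 0.85), and Eif4g2 in MDSC-NP-Blk was also lost without its replicates 1 and 4 (-0.11, adjusted p = 0.0514). Eif4e counted 1930 ± 31.5 without NPs, 1620 ± 115 with blank NPs and 1546 ± 110 with rapamycin NPs. Against this, Eif4e2, a cap-binding protein that acts in repression, rose from 1309 ± 107 to 1622 ± 71.8 and 1649 ± 62.6, the first of which was lost with the length correction (0.14, adjusted p = 0.066). Eif4e3, another cap-binding protein, was higher in CITED (823 ± 41.7) than in MDSC-NP-Blk (691 ± 63.4; 0.25 ± 0.0837, adjusted p = 0.024), which was lost without MDSC-NP-Blk replicate 2 (adjusted p = 0.055) or 3 (adjusted p = 0.10) or CITED replicate 1 or 4 (adjusted p = 0.067 for each).

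Eif4b and Eif4h, which stimulate the helicase eIF4A, rose by 0.70 and 0.46 in MDSC-NP-Blk and by 0.59 and 0.45 in CITED. For Eif4b the normalized counts were 8889, 8573, 8621 and 8920 in MDSC, 14485, 13853, 14010 and 14557 in MDSC-NP-Blk, and 13194, 13067, 13132 and 13350 in CITED. CITED lay below MDSC-NP-Blk without overlap, but that difference of -0.11 ± 0.0427 did not pass (adjusted p = 0.064). Of the helicase genes, Eif4a2 rose (0.58 and 0.43) and was lower in CITED than in MDSC-NP-Blk only without MDSC-NP-Blk replicates 2 and 3 (-0.34, adjusted p = 1.9e-06). Eif4a1 was lower in MDSC-NP-Blk (-0.14, adjusted p = 0.022, lost without MDSC replicate 2 or MDSC-NP-Blk replicate 4, at 0.097 and 0.10) and at -0.05 in CITED (adjusted p = 0.45), and Eif4a3, a core part of the exon junction complex, did not pass.

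The eIF4E-binding proteins hold eIF4E back unless mTOR phosphorylates them. Eif4ebp2 rose from 5966 ± 161 to 8196 ± 129 and 8238 ± 105, with log2 fold changes of 0.46 and 0.47 and 0.01 ± 0.0443 (adjusted p = 0.97) between CITED and MDSC-NP-Blk. Eif4ebp1, outside the set, went from 2282 ± 102 to 4139 ± 796 and 4321 ± 135 (0.86 and 0.92). Eif4enif1, a transporter of eIF4E into the nucleus, was lower in CITED than in MDSC (-0.18 ± 0.064, adjusted p = 0.018), which was lost with the length correction (-0.13, adjusted p = 0.07) and without MDSC replicate 2 or 4 (adjusted p = 0.052 and 0.057).

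Eif6 was the initiation factor with the lowest p between CITED and MDSC-NP-Blk among those that were higher. eIF6 keeps the large ribosomal subunit from joining too early and takes part in its making. The gene lies on chromosome 2 from 155661748 to 155668845 (minus strand). Normalized counts were 1865, 1949, 1763 and 1823 in MDSC, 2685, 2398, 2322 and 2565 in MDSC-NP-Blk, and 3351, 3173, 2986 and 3188 in CITED. The 3 groups did not overlap, with CITED highest and MDSC-NP-Blk in the middle. As a log2 fold change, this was 0.43 ± 0.0576 (adjusted p = 1.5e-07) for MDSC-NP-Blk against MDSC, 0.35 ± 0.0571 (adjusted p = 1.3e-05) for CITED against MDSC-NP-Blk and 0.78 ± 0.0576 (adjusted p = 1.2e-13) for CITED against MDSC.

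Eif5a, for the hypusine-bearing factor that relieves stalled ribosomes, was at 18302 ± 803, 20900 ± 710 and 21778 ± 939. It was higher by 0.19 and 0.25, but was at -0.07 (adjusted p = 0.18) and -0.02 (adjusted p = 0.68) with library totals alone and at -0.00 (adjusted p = 0.99) and 0.05 (adjusted p = 0.35) with a correction for transcript length. The enzymes that make hypusine on eIF5A, Dhps and Dohh, were higher in CITED than in MDSC-NP-Blk, at 476 ± 75.7 against 369 ± 34.3 (adjusted p = 0.0087) and 770 ± 51.9 against 582 ± 76.1 (adjusted p = 0.00074). The Dhps ranges of these groups overlapped, and 66.6% of the 31-base words of Dohh are shared with Gm48551.

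**Figure D3:**
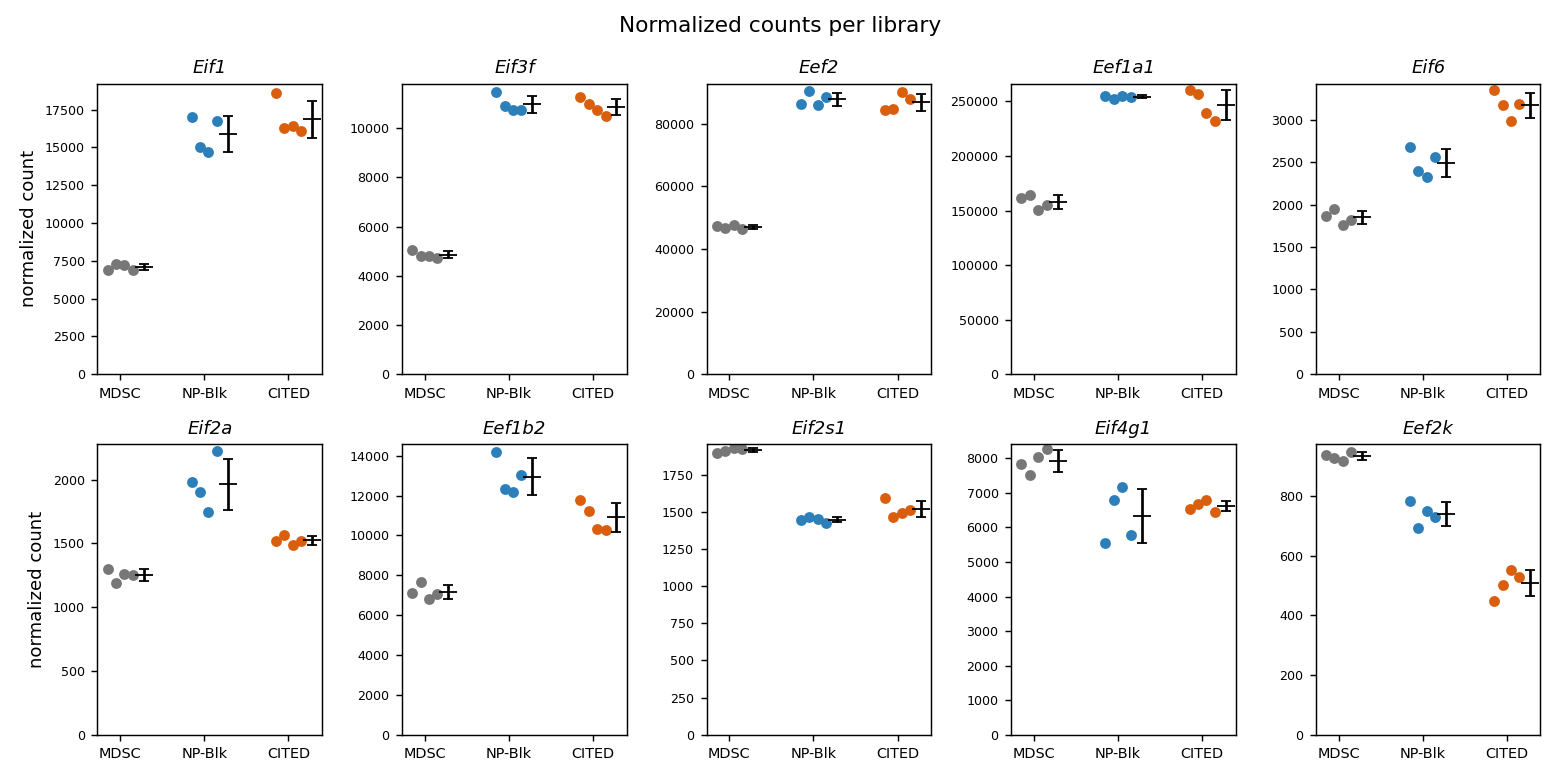
Normalized counts (y axis, from 0) of 10 factor genes in each of the 12 libraries, by group (x axis), with the mean and SD of 4 libraries beside the points. For Eif1, Eif3f, Eef2 and Eef1a1 the groups with NPs overlap each other above MDSC, while Eif6 and Eef2k form 3 separate levels and Eif2a and Eef1b2 have CITED between the other groups.

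Of the elongation factor 1 genes, 4 of 5 expressed ones (80%) rose in both conjugated groups, and 1 (20%) fell. Of all expressed genes, 32.1% were higher and 28.2% lower in MDSC-NP-Blk than in MDSC, and 35.6% and 32.3% in CITED than in MDSC. Eef1a1, on chromosome 9 from 78384916 to 78396778 (minus strand), was the most abundant of all factors. It counted 161207, 164518, 150744 and 155296 in MDSC, 254871, 252148, 255388 and 254420 in MDSC-NP-Blk, and 260467, 256816, 239217 and 231962 in CITED, on the normalized scale. The libraries with NPs were all above those of MDSC, and CITED was spread around MDSC-NP-Blk. The log2 fold change was 0.69 ± 0.039 (adjusted p = 3.9e-16) and 0.65 ± 0.039 (adjusted p = 6.1e-16), and -0.04 ± 0.0388 (adjusted p = 0.52) between the groups with NPs. It was 0.42 and 0.37 against MDSC with library totals alone. Eef1a2, the form of muscle and neurons, had at most 12 counts in a library.

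Eef1b2, for the alpha subunit of the exchange factor, moved as Eif2a did. It counted 7130, 7660, 6828 and 7076 in MDSC, 14198, 12320, 12202 and 13054 in MDSC-NP-Blk, and 11778, 11225, 10346 and 10254 in CITED (normalized counts). CITED lay between the other groups without overlap. With edgeR the log2 fold change was 0.85 ± 0.054 (adjusted p = 5.8e-15) for MDSC-NP-Blk against MDSC, -0.25 ± 0.0536 (adjusted p = 0.00059) for CITED against MDSC-NP-Blk and 0.60 ± 0.0539 (adjusted p = 1.3e-11) for CITED against MDSC.

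The other subunit genes of the exchange complex did not share that order. Eef1g rose from 8454 ± 287 to 9313 ± 243 and on to 10568 ± 492, with 0.14 ± 0.0465 (adjusted p = 0.016) in the first step and 0.18 ± 0.0465 (adjusted p = 0.0033) in the second. Its first step reversed to -0.12 (adjusted p = 0.023) with library totals alone and was 0.12 without MDSC replicate 4 (adjusted p = 0.07) or MDSC-NP-Blk replicate 1 (adjusted p = 0.0525). Eef1d went from 1458 ± 28.7 to 2035 ± 148 and 2213 ± 200. Eef1e1, which belongs to the multi-tRNA synthetase complex despite its name, fell from 401 ± 44.6 to 247 ± 33.1 (-0.71 ± 0.117, adjusted p = 6e-06) and 299 ± 43.3 (-0.42 ± 0.116, adjusted p = 0.0026).

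Eef2 and the gene of the kinase that inactivates eEF2, Eef2k, changed in opposite directions. Eef2, on chromosome 10 from 81012465 to 81018348 (plus strand), counted 47426, 46609, 47679 and 46392 in MDSC, 86223, 90631, 86047 and 88413 in MDSC-NP-Blk, and 84544, 84851, 90020 and 87851 in CITED (normalized counts). The 2 groups with NPs overlapped and lay clear of MDSC. In the test this was a log2 fold change of 0.90 ± 0.0383 (adjusted p = 2.3e-19) and 0.88 ± 0.0383 (adjusted p = 8.7e-20), and -0.02 ± 0.038 (adjusted p = 0.83) between them.

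Eef2k, on chromosome 7 from 120441877 to 120506674 (plus strand), was the only expressed factor that fell in both steps. mTOR and S6 kinase are known to restrain the eEF2 kinase protein. Normalized counts were 937, 927, 916 and 947 in MDSC, 784, 692, 749 and 730 in MDSC-NP-Blk, and 449, 503, 552 and 528 in CITED. The 3 groups were fully apart. Its log2 fold change came to -0.34 ± 0.0751 (adjusted p = 0.00039) for MDSC-NP-Blk against MDSC, -0.54 ± 0.0781 (adjusted p = 1.8e-06) for CITED against MDSC-NP-Blk and -0.87 ± 0.0772 (adjusted p = 9.9e-12) for CITED against MDSC. With the length correction, the first of these did not pass (-0.17, adjusted p = 0.074), while the others were -0.46 (adjusted p = 1.2e-05) and -0.63 (adjusted p = 5.4e-09).

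Among the lysine methyltransferases of elongation factors, Eef1akmt4 rose from 119 ± 16 to 155 ± 21.7 and to 214 ± 18.9, and 43.3% of its words are shared, mostly with the readthrough transcript Eef1ece2. The second step, 0.48 ± 0.142 (adjusted p = 0.013), was lost without MDSC-NP-Blk replicate 2 (0.38, adjusted p = 0.076) or CITED replicate 4 (0.42, adjusted p = 0.058). The first, 0.37 ± 0.146 (adjusted p = 0.042), was lost without any of MDSC replicates 1 and 3 and MDSC-NP-Blk replicates 1, 3 and 4 (adjusted p of 0.072 to 0.16). Eef2kmt was higher in CITED than in MDSC at 364 ± 44 against 298 ± 49 (adjusted p = 0.038), which was lost without MDSC replicate 4 (adjusted p = 0.21) or CITED replicate 1, 3 or 4 (adjusted p of 0.11, 0.07 and 0.13). Eef1akmt1 and Eef1akmt2 did not pass.

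Taking the blank NP and the drug load as successive steps, 21 of the 58 expressed factors rose with the blank NP and did not pass in the second step, and 11 fell and did not pass in the second. The share of all expressed genes with each of these patterns is not given here. In the second step alone, 6869 of 10556 expressed genes did not pass, beside 47 of the 58 factors. The patterns are therefore not read as particular to the factors. A rise in both steps was called for Eef1akmt4, Eef1g, Eif2b2, Eif3g and Eif6, of which Eef1akmt4, Eef1g and Eif2b2 lost the first step without MDSC-NP-Blk replicates 1 and 4 and Eef1akmt4, Eif2b2 and Eif3g the second without replicates 2 and 3. Leaving out replicates 1 and 4 also ended the first step of Eif3d (0.08, adjusted p = 0.28) and Eif4a1 (-0.08, adjusted p = 0.25) and the second of Eif1a (0.14, adjusted p = 0.22). Leaving out replicates 2 and 3 ended the second step of Eif3c (-0.08, adjusted p = 0.36) and Eif4e3 (0.16, adjusted p = 0.30), and Eif3b (0.18, adjusted p = 0.028), Eif4a1 (0.16, adjusted p = 0.022), Eif3k (-0.19, adjusted p = 0.011) and Eif4b (-0.14, adjusted p = 0.027) then passed in it. Eef1b2 and Eif2a rose and then fell. Eif1a and Eif4e3 passed upward and Eif3c downward in the second step only, and 15 passed in neither. The steps share the MDSC-NP-Blk libraries, so that a high value there raises the first difference and lowers the second.

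Related genes were compared as a share of the counts of a pair, with no correction for transcript length. On the TPM-like scale, Eif4e and Eif4e2 stood at 37 and 79.9 in MDSC, and with the longest transcripts at 43.5 and 22.7. The libraries also differed in their length trend, and its part in these shares was not tested. Eif4e made up 59.6% ± 1.75 (SD, n = 4) of Eif4e and Eif4e2 counts in MDSC but 49.9% ± 2.56 for MDSC-NP-Blk and 48.4% ± 1.65 for CITED, and MDSC did not overlap the others. Eif4a1 made up 73.2% ± 0.43 of Eif4a1 and Eif4a2 in MDSC but 62.4% ± 5.39 for MDSC-NP-Blk and 66.2% ± 0.8 for CITED, also without overlap between MDSC and the others. The share of Eif1 in Eif1 and Eif1b went from 87.6% ± 0.586 to 91.1% ± 0.544 and 92.2% ± 0.391, with no overlap among the 3 groups.

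Eif4g1 kept 74.2% ± 0.295, 74% ± 1.76 and 73.8% ± 0.62 of its pair with Eif4g3, and all the ranges overlapped. In a two-sided exact permutation test of 4 against 4 the smallest p possible is 0.0286, which became 0.0762 after adjustment over 24 tests of 8 pairs, so that none passed. Eif5a and Eef1a1 made up over 99% of their pairs with Eif5a2 and Eef1a2 in each group.

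**Figure D4:**
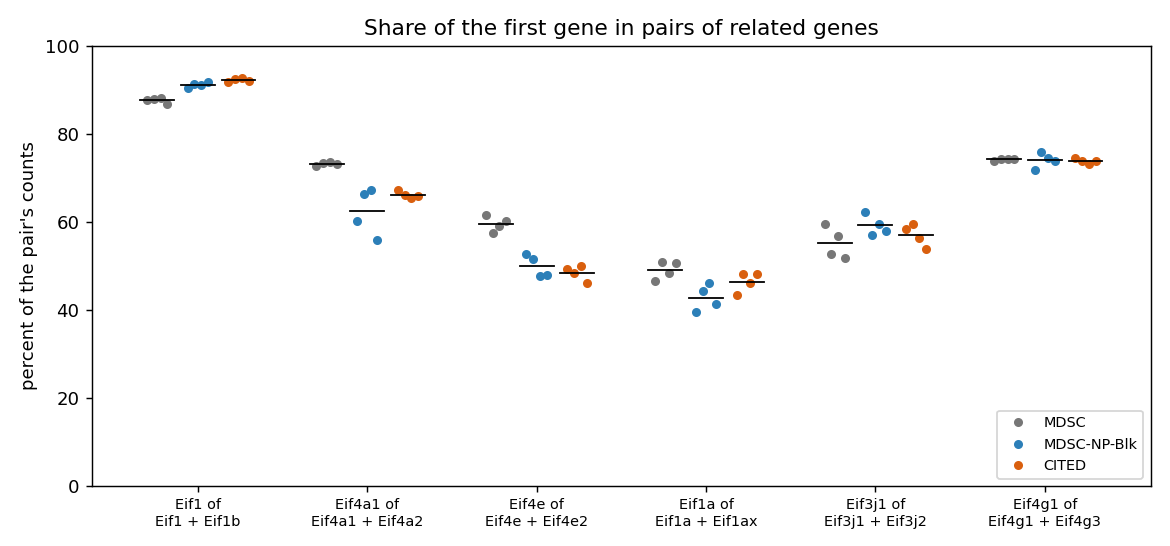
Share of the first gene in the counts of 6 pairs of related genes (y axis, percent of the counts of the pair), with a point per library and a line at the mean of each group. Eif4e falls from 59.6% in MDSC to 49.9% and 48.4%, and Eif4g1 stays between 73.8% and 74.2%. The counts were not corrected for transcript length.

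Transcript length differed between the factors that rose and those that fell. In CITED against MDSC the 28 higher ones had a median length of 1902 bases and the 13 lower ones 3651 bases, and in MDSC-NP-Blk against MDSC the medians were 1902 and 3202. The libraries differed in the same manner over 10543 expressed genes, with a Spearman correlation of length with relative expression of 0.218 to 0.346 for MDSC, -0.422 to 0.0921 for MDSC-NP-Blk (-0.422 and -0.243 in replicates 1 and 4, -0.0473 and 0.0921 in replicates 2 and 3) and -0.341 to -0.187 for CITED. As a description across genes, which are not independent, length and log2 fold change had a Spearman rho of -0.463 over the 58 factors and -0.315 over expressed genes for CITED against MDSC, of -0.395 and -0.32 for MDSC-NP-Blk against MDSC, and of -0.0903 and -0.138 for CITED against MDSC-NP-Blk.

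With the trend of length removed from each library, 27 of the 28 higher and 8 of the 13 lower calls were kept in CITED against MDSC, 21 of 28 and 10 of 12 in MDSC-NP-Blk against MDSC, and 7 of 7 and 3 of 4 in CITED against MDSC-NP-Blk. Eif3f (1.20 and 1.21 for MDSC-NP-Blk and CITED), Eif1 (0.97 and 1.05), Eef2 (0.89 and 0.88) and Eif2s1 (-0.39 and -0.31) held. The lower calls lost were those of Eif3c, Eif4enif1, Eif4g1, Eif4g2 and Eif4g3 in CITED and of Eef2k and Eif4g2 in MDSC-NP-Blk, and the higher ones those of Eif5a in CITED and of Eef1akmt4, Eef1g, Eif2b2, Eif3d, Eif3l, Eif4e2 and Eif5a in MDSC-NP-Blk, each against MDSC.

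**Figure D5:**
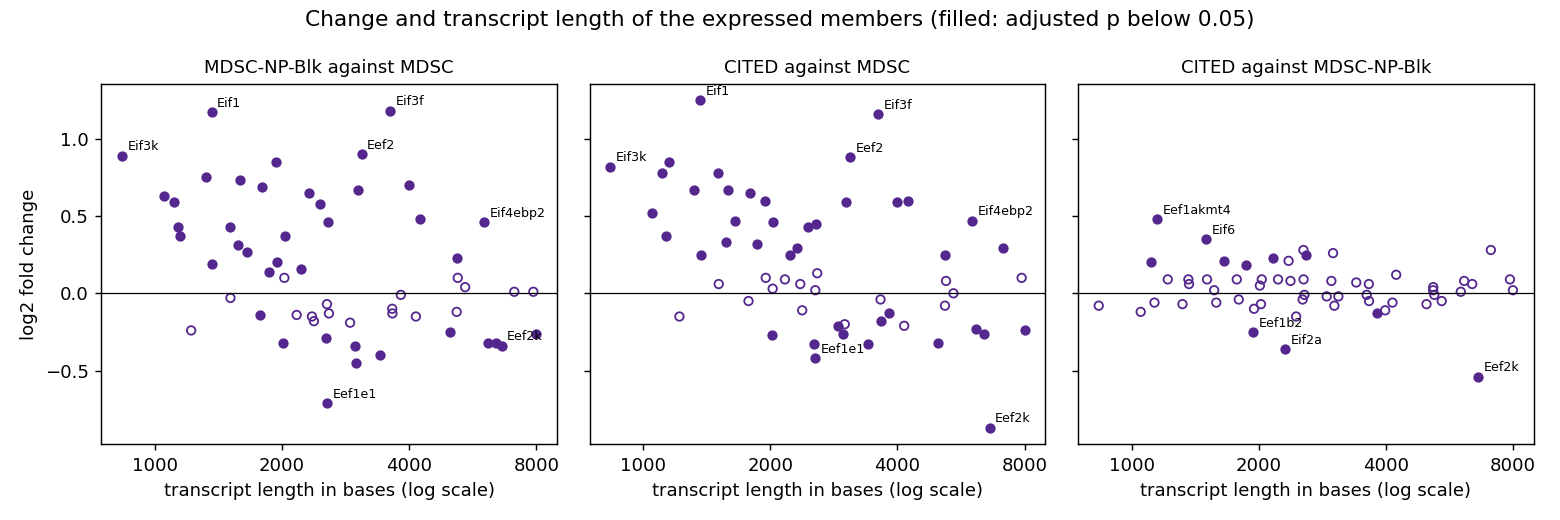
Log2 fold change (y axis) against transcript length in bases (x axis, log scale) for 58 expressed factors in 3 comparisons, with filled points for an adjusted p below 0.05. Short transcripts lie mostly above 0 in the comparisons with MDSC (rho of -0.395 and -0.463), whereas Eif3f and Eef2, at 3604 and 3089 bases, are high at intermediate length.

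Of 37 neighbouring genes of translation control, all tested, 12 were higher and 14 lower in MDSC-NP-Blk than in MDSC, 15 and 15 in CITED than in MDSC, and 8 and 4 in CITED than in MDSC-NP-Blk. These are 32.4% and 37.8%, 40.5% and 40.5%, and 21.6% and 10.8%, beside 19.9% and 18.6%, 22.2% and 22.2%, and 10.5% and 11.4% of all genes tested, and 32.1% and 28.2%, 35.6% and 32.3%, and 16.9% and 18% of all expressed genes. Ppp1r15a, the stress-induced subunit of the phosphatase that acts on eIF2, went from 466 ± 28.5 to 889 ± 63.5 and 1055 ± 92.9. Tpt1, a growth-related TOP mRNA, went from 21149 ± 851 to 43449 ± 2201 and 48186 ± 2928. For Tpt1 no run was found at the annotated start, and 57.7% of its 31-base words are shared with Gm44442. Abce1 (-0.81 and -0.60), which splits ribosomes, and Gspt1 (-0.53 and -0.52), the release factor GTPase, fell. Of the eIF2 kinases, Eif2ak1 rose (0.37 and 0.38), and Eif2ak4 (-0.73 and -0.53), which senses uncharged tRNA, and Eif2ak2 (-0.50 and -0.38), which senses double-stranded RNA, fell. Eif2ak3, the kinase of the unfolded protein response, was at -0.07 in MDSC-NP-Blk (adjusted p = 0.51) and lower in CITED (-0.25, adjusted p = 0.0082). Pdcd4, an inhibitor of eIF4A, was higher in MDSC-NP-Blk (1103 ± 66.2) than in MDSC (809 ± 87.5) or CITED (796 ± 56.3; -0.47 against MDSC-NP-Blk, adjusted p = 2.4e-05). Apart from Eif4ebp1 and the eIF2 kinases, the neighbours named here and above were picked after their values were seen.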

How the data were processed

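For 12 poly(A) RNA libraries, 4 in each of 3 groups, the authors deposited a table of whole-number counts with a row per gene symbol. Per the methods and the submitters' processing notes, paired-end reads were quantified with Salmon 1.4.0 against GENCODE GRCm39 transcripts with decoys and summed per gene with tximport in R 4.3.2, with no normalization. The GENCODE release is not given in the sources used here. Reads that match several transcripts are shared out by estimate, so counts of genes with near copies depend on that estimate. Groups came from the titles, and 1 row with an empty symbol, at 0 in all libraries, was dropped.

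A total of at least 2 counts was required, and the 17676 symbols that passed were tested with edgeR 4.0.16 in R 4.3.3 (TMM factors, quasi-likelihood test, group as the only term, all 12 libraries, robust estimation off), with Benjamini-Hochberg adjustment over all genes tested. The common biological coefficient of variation was 9.03%. To normalize, each count was divided by its library's TMM-adjusted size and multiplied by the mean adjusted size. Calls used an adjusted p of 0.05, and a second rule added an absolute log2 fold change of 1. Replicate pairs were compared by chi-square of their counts and all differed beyond sampling noise.

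The members and lists were chosen with earlier results of these data known. Named genes are those past both thresholds, the 2 lowest p-values per role group, comparison and direction among expressed genes, those with opposite signs in both steps, the 5 highest levels per length, genes at or under 3 counts, the related pairs and the genes the symbol rule leaves out. Other genes are named to complete a complex, a choice made with their values known. Transcript models, lengths and sequences came from GENCODE release 39 (GRCm39), which held 35220 of the 35303 symbols and all 96 members. The length correction subtracts, per library, a loess curve (span 0.5) of relative expression on transcript length.

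Alternatives were DESeq2 1.42.0, other scalings and filters, robust estimation, 8 libraries alone, a replicate block, a length correction, both together, the longest transcript and each library left out in turn, and, added after seeing the data, either pair of alike MDSC-NP-Blk libraries left out. The fit and the length correction were tested on simulated data before use. Figures used Python 3.11.15 with matplotlib 3.10.9.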

Additional observations from a re-analysis of the deposited data

Results flagged for a closer look

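In 111 groups of 4 libraries (37 named expressed factors in 3 groups), 7 values lay apart from the others of their group by Dixon's ratio, where chance gives about 1 in 20. CITED replicate 1 had the highest Eif1, 18633 against 16090 to 16400, the highest Eif3k, 4927 against 4559 to 4596, the highest Eif5a, 23175 against 21157 to 21465, and the lowest Eif3c, 4627 against 4853 to 4889 (normalized counts throughout). Without that library the log2 fold change of CITED against MDSC was 1.20 for Eif1, 0.79 for Eif3k and 0.22 for Eif5a, all still past the threshold, and -0.12 for Eif3c (adjusted p = 0.061), which no longer was.

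MDSC replicate 4 had the lowest Eef2kmt, 225 against 314 to 332, and the lowest Eif3c, 5087 against 5315 to 5361. Without it Eef2kmt in CITED against MDSC was at 0.18 (adjusted p = 0.21) and Eif3c at -0.15 (adjusted p = 0.019). MDSC-NP-Blk replicate 1 had the highest Eef1g, 9676 against 9167 to 9218, and without it the difference from MDSC was 0.12 (adjusted p = 0.0525). That library also had the strongest length trend of its group, a rho of -0.422, and the part of length in these values was not tested.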

How the results depend on the processing

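Counts of factors under the alternatives are given without the shares of all genes called, and so describe the factors alone. With library totals alone, 20 factors were higher and 26 lower in CITED than in MDSC (29 and 13 with TMM), and 20 higher and 30 lower in MDSC-NP-Blk (29 and 12). Reversed values were -0.02 (Eif5a), -0.19 (Eif1a) and -0.03 (Eif1ax) for CITED against MDSC, and -0.07 (Eif5a), -0.12 (Eef1g), -0.04 (Eif1ax) and -0.22 (Eif3j1) for MDSC-NP-Blk against MDSC. Eif1 and Eif3f then stood at 0.98 and 0.89 in CITED. Eif5a reached -0.00 in MDSC-NP-Blk with the length correction, alone or with the replicate block. Deviations from the group means had correlations of -0.0597 to 0.14 between same-numbered libraries. Whether such libraries share a preparation is not given in the sources used here. With the replicate block, 29 were higher and 13 lower in CITED than in MDSC, 28 and 14 in MDSC-NP-Blk than in MDSC, and 8 and 4 in CITED than in MDSC-NP-Blk. The replicate block with length correction left 1 factor past both thresholds in MDSC-NP-Blk against MDSC (3 before) and 14 higher in CITED than in MDSC-NP-Blk (7 before). DESeq2 called 18 lower in MDSC-NP-Blk than in MDSC, and 19 were lower without MDSC-NP-Blk replicates 2 and 3, added after seeing the data. With the longest transcript, mean levels per length over all libraries were 7010 (Eef1a1), 2260 (Eef2), 650 (Eif5a) and 431 (Eif4a1).

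Leaving out 1 library at a time gave 28 to 30 higher and 10 to 13 lower factors in CITED against MDSC, 26 to 30 and 11 to 19 in MDSC-NP-Blk against MDSC, where 19 came without MDSC-NP-Blk replicate 3, and 3 to 8 and 3 to 4 in CITED against MDSC-NP-Blk, where 3 came without MDSC-NP-Blk replicate 2 or CITED replicate 4 and 4 without CITED replicate 1. In every alternative run, 19 of 28 higher and 6 of 13 lower expressed factors kept their call in CITED against MDSC, 19 of 28 and 7 of 12 in MDSC-NP-Blk against MDSC, and 2 of 7 and 3 of 4 in CITED against MDSC-NP-Blk. For single named genes, 1 library left out lost the call 49 times and made a new one 12 times, and the other alternatives 50 and 46 times, reversed values apart. The causes of these changes were not tested.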
